A study of Mus musculus with 2 samples.

Results

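Clec3b, Ecrg4, Dpt, Pi16, Ly6a, Dpp4, Cd34 and Gsn are 8 of the 32285 genes in the count matrices, taken by symbol as genes of fibroblasts that appear late in the embryonic limb. They were chosen from the same libraries for their low level at E12.5 and their presence at E15.5, so the difference between ages is given as a description and supports nothing. All 8 symbols were found in both matrices and none was removed by a filter. The study measured single-cell RNA in limb skeletal muscles of wild-type C57Bl/6 mouse embryos, with forelimbs and hindlimbs together, by droplet sequencing of transcript 3' ends. There was 1 library at E12.5 and 1 at E15.5, each loaded with 20000 cells after trypsin dissociation. The number of embryos behind each library is not given in the sources used here. With 1 library per age no test between ages is possible, and every interval below is a 95% interval of counting error only.

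Fibroblasts of the limb build the connective tissue that wraps muscle, joins it to tendon and bone, and fills the space around vessels and nerves. In adult mouse tissues Pi16 and Dpt mark fibroblasts found in many organs, and Ly6a, Dpp4 and Cd34 label interstitial and fascia fibroblasts with progenitor properties. The proteins have different jobs. Clec3b encodes tetranectin, a secreted lectin-like protein that binds plasminogen, and Dpt encodes dermatopontin, an extracellular matrix protein that binds decorin. Ecrg4 encodes augurin, a secreted peptide precursor, and Pi16 a peptidase inhibitor of the CAP family. Ly6a encodes the membrane-anchored antigen Sca-1, Dpp4 a cell-surface dipeptidase (CD26) and Cd34 a sialomucin of endothelial, blood progenitor and stromal cells. Gsn encodes gelsolin, an actin-severing protein.

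In the GRCm38 annotation Clec3b spans chr9:123150946-123157432 and Pi16 chr17:29317680-29330593 on the plus strand. On chromosome 1, Ecrg4 spans chr1:43730602-43742578, Dpt chr1:164796644-164824266 and Cd34 chr1:194938819-194961279, all on the plus strand. Gsn spans chr2:35256380-35307892 on the plus strand and Dpp4 chr2:62330073-62412231 on the minus strand. Ly6a spans chr15:74994877-74998031 on the minus strand, beside closely related Ly6 genes, so reads could be split among paralogs and its counts are uncertain. Antisense genes overlap Ecrg4, Dpt, Pi16, Dpp4 and Cd34, and the most any of them held was 26 UMIs (unique transcript molecules), for Gm32569 over Dpt at E15.5. Gm43128 overlaps Gsn on the same strand and is not in the count matrices, so its part in the Gsn counts was not tested.

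Promoters are shown for Dpt, Ecrg4 and Pi16, because these genes had their highest E15.5 level in different clusters of cells (given below). Each sequence is the RefSeq window of GRCm38.p6 from 250 bases before to 50 bases after an annotated transcript start, on the strand of the gene. These 3 windows are chr1:164796413-164796712 for Dpt, chr1:43730352-43730651 for Ecrg4 and chr17:29318632-29318931 for Pi16, all plus strand. The Pi16 window lies inside the gene span given above. Windows were matched for 6 of the 8 genes (8 windows, 3 of them for Gsn), and those for Clec3b and Ly6a were not used here. Capitals mark matches on either strand to a TATA box, written TATAAA, or to the TEAD motif, written GGAATG. They also mark the RUNX motif, written TGTGGT, and the CCAAT box. An AP-1 motif (TGANTCA), an NFI motif (TTGGCA) and a GC box (GGGCGG) were searched as well, and GC boxes and E-boxes (CANNTG) are not in capitals.
Dpt: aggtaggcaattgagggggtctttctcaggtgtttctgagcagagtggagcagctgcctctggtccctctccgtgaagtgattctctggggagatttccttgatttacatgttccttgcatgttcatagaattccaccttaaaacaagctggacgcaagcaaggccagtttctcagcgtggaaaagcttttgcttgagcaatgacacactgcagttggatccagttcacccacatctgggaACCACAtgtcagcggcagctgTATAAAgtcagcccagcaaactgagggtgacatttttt
Ecrg4: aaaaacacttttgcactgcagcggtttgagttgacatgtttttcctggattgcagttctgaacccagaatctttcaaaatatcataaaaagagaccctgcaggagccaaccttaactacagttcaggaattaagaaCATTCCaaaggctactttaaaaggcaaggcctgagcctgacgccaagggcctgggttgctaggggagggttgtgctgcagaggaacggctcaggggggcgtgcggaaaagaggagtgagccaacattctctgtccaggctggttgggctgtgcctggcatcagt
Pi16: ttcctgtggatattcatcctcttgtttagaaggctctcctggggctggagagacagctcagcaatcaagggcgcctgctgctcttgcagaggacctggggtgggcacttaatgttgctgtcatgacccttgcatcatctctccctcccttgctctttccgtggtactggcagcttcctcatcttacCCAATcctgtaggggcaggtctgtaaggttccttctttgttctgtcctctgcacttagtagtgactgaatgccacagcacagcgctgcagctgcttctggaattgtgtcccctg

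The Dpt window has a TATAAA at base 263, after the annotated RefSeq start, and a RUNX match at base 242 that shares bases with an E-box. It holds 7 E-boxes in all. The Ecrg4 window has a TEAD match at base 137 and no E-box. The Pi16 window has a CCAAT match at base 187 and 1 E-box. None of the 3 has a match to the AP-1 or NFI letters or to the GC box. Of 32851 RefSeq promoters of the same 300 bases, 13.6% held TATAAA, 14.7% the TEAD letters, 16.8% the RUNX letters, 37.4% CCAAT, 72.3% an E-box, 7.81% the AP-1 letters, 14.1% the NFI letters and 35.7% the GC box. GC content was 48.7% in the Dpt window, 50% in the Ecrg4 window and 53.3% in the Pi16 window, beside a median of 52.7% over all promoters. The Dpp4 window, not shown, shares the TEAD letters with Ecrg4 (base 133). No motif among those searched was present in all 6 genes. Matches are letters in a window and were not measured as binding.

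After filters on detected genes, mitochondrial share and doublets, 11001 E12.5 cells with a median of 2323 UMIs and 3916 E15.5 cells with a median of 9329 UMIs were kept. The E15.5 library is thus the deeper per cell, so shares of cells with a UMI are given after thinning each cell to 2000 UMIs, which left 6959 E12.5 and 3645 E15.5 cells. Levels are a gene's UMIs scaled to a common total (CPM, parts in 1e+06 UMIs) and are not scaled by gene length, since 3' reads do not grow with length. Cells were clustered in each library without the 8 genes. Clusters are called connective tissue-like, endothelial-like and so on from marker lists, written below without the suffix, so class names are reconstructions. Connective tissue cells made up 61.2% of kept cells at E12.5 (6728 cells in 12 clusters) and 42.4% at E15.5 (1660 cells in 8 clusters). Skeletal muscle markers defined 609 and 400 cells, so most cells of these libraries are not of the muscle lineage. The libraries share 17 barcodes, in which the 8 genes had 1 UMI (E12.5) and 62 UMIs (E15.5). Without them the summed ratio of the 8 genes between ages was 3.70 on the log2 scale, as with them.

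At E12.5 the 3 genes that lead the group were close to undetected. Clec3b had 6 UMIs in 11001 cells (0.213 CPM, interval 0.0781 to 0.463) and 2819 UMIs at E15.5 (69.3 CPM, 66.7 to 71.9). Dpt, the matrix protein, had 14 UMIs (0.496 CPM, 0.271 to 0.833) and then 6246 (153 CPM, 150 to 157). Ecrg4 had 13 UMIs (0.461 CPM, 0.245 to 0.788) and then 5492 (135 CPM, 131 to 139). Each of these E12.5 levels lies far below its E15.5 interval. The log2 ratio of E15.5 over E12.5 was 8.35 (7.22 to 9.79) for Clec3b, 8.27 (7.52 to 9.14) for Dpt and 8.19 (7.42 to 9.10) for Ecrg4, and these 3 intervals overlap. At E12.5 all 13 Ecrg4-positive cells and all 14 Dpt-positive cells held a single UMI, and Clec3b was found in 5 cells, all in the connective tissue class.

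Of the surface proteins, Ly6a had 3 UMIs at E12.5 (0.106 CPM, 0.0219 to 0.311) and 435 at E15.5 (10.7 CPM, 9.71 to 11.7), a log2 ratio of 6.65 (5.09 to 8.93). Dpp4 had 11 UMIs (0.390 CPM, 0.195 to 0.698) and then 326 (8.01 CPM, 7.16 to 8.93), a log2 ratio of 4.36 (3.50 to 5.38). At E15.5 a Ly6a UMI was found in 177 of 3916 cells and a Dpp4 UMI in 211. Pi16, the CAP-family inhibitor, had 44 UMIs at E12.5 (1.56 CPM, 1.13 to 2.09) and 229 at E15.5 (5.63 CPM, 4.92 to 6.41), a log2 ratio of 1.85 (1.38 to 2.35). It had the highest E12.5 level of these 6 genes.

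Cd34 and Gsn do not share the near absence. Cd34 had 477 UMIs at E12.5 (16.9 CPM, 15.4 to 18.5) and 3350 at E15.5 (82.3 CPM, 79.6 to 85.2), a log2 ratio of 2.28 (2.14 to 2.42). Gsn had 652 UMIs (23.1 CPM, 21.4 to 25.0) and then 3987 (98.0 CPM, 94.95 to 101), a log2 ratio of 2.08 (1.96 to 2.21). Near absence at E12.5, on which the genes were chosen, thus describes Clec3b, Ecrg4, Dpt, Ly6a and Dpp4, while Pi16 was low at both ages. Over all kept cells 7 of the 8 genes were at least 4-fold higher at E15.5, all but Pi16 at 3.61-fold. Of the 15097 genes with at least 50 UMIs over both libraries, 5.13% were; the 8 genes were chosen for that difference and nothing is read from their count. The median log2 ratio of those genes was -0.29. The intervals of Gsn and Pi16 both include 4-fold. Gsn fell just below it with all deposited barcodes (log2 ratio 1.97), and Pi16 passed it relative to the median gene (2.14).

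**Figure D1:**
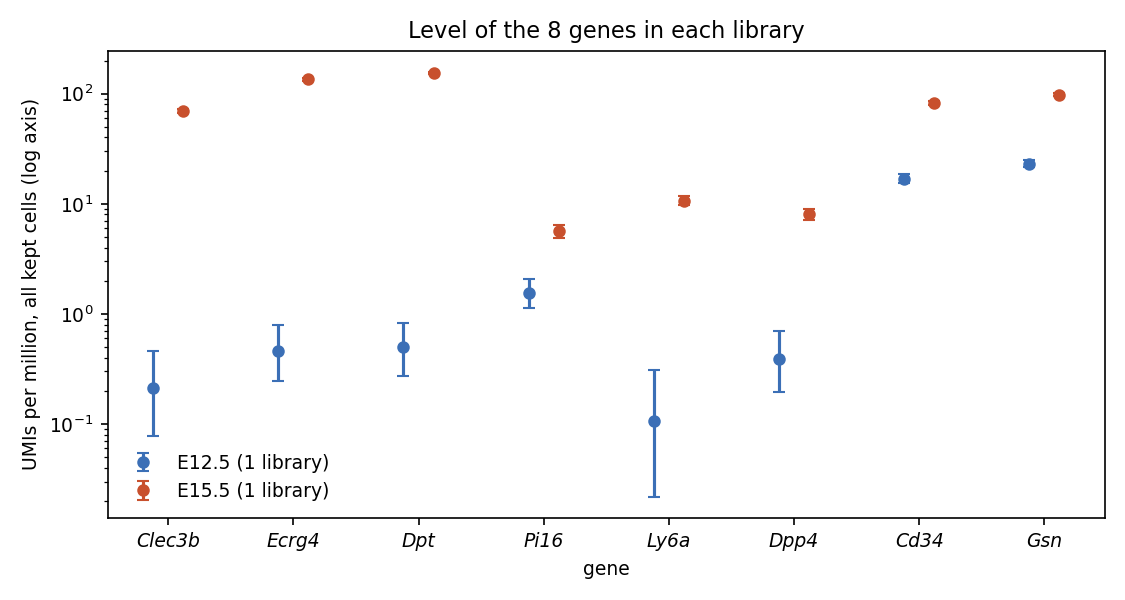
Level of each of the 8 genes over all kept cells, in CPM on a log axis, in the E12.5 library (blue) and the E15.5 library (red); bars are exact Poisson 95% intervals of counting error. Clec3b, Ecrg4, Dpt, Ly6a and Dpp4 lie below 1 CPM at E12.5, while Cd34 (16.9) and Gsn (23.1) do not.

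The few E12.5 molecules were scattered. Of 11001 cells, 88 (0.80%) held a UMI of Clec3b, Ecrg4, Dpt, Pi16, Ly6a or Dpp4, and 0 held UMIs of 2 of these 6. The connective tissue class held all 5 Clec3b-positive cells, 12 of 13 for Ecrg4, 12 of 14 for Dpt, 8 of 11 for Dpp4 and 2 of 3 for Ly6a. For Dpp4 the other cells were 2 immune cells and 1 cell of the joint interzone class. Pi16 was spread over classes: 25 of its 42 positive cells (59.5%, 43.3 to 74.4) were connective, close to the class's 61.2% of all cells. Its share of cells with a UMI at E12.5, after thinning, was 0.326% (0.178 to 0.546) in the connective class and 0.542% (0.112 to 1.58) in the muscle lineage, with median depths of 2328 and 3746 UMIs. These intervals overlap, so a Pi16 level particular to E12.5 connective cells was not detectable at this depth.

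Cd34 at E12.5 was mostly endothelial, and Gsn was broad. The endothelial cluster of 134 cells held 323 of the 477 Cd34 UMIs (67.7%), at 516 CPM (461 to 575), and 82.8% of its cells were positive. The connective class held 7.51 CPM (6.26 to 8.93), with the highest connective level, 50.1 CPM (29.2 to 80.3), in cluster 20, led by Grem1 and Alx1. Gsn stood at 24.8 CPM (22.4 to 27.3) in the connective class, which held 64.3% of its UMIs and 60.0% of all UMIs, and was highest in cluster 23, 65 differentiated muscle cells led by Myh3 and Mylpf (169 CPM, 129 to 218). The highest number of the 8 genes in any E12.5 cell was 3, in a single immune cell with Dpp4, Cd34 and Gsn.

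At E15.5 most molecules of 7 of the 8 genes, all but Ecrg4, lay in connective tissue cells, which held 44.4% of all UMIs. The class held 94.5% (93.6 to 95.3) of Clec3b UMIs, 89.3% (85.4 to 92.4) of Dpp4, 89.0% (88.2 to 89.8) of Dpt, 86.0% (82.4 to 89.1) of Ly6a and 82.1% (76.5 to 86.8) of Pi16. It held 72.9% of Gsn and 56.6% of Cd34. Ecrg4 goes against the fibroblast label: 19.3% (18.3 to 20.4) of its UMIs were in the class. Of the 8 genes, 6 were at least 2-fold higher in connective cells than in all other E15.5 cells, where 6.64% of 13711 genes were. The exceptions were Cd34, with a log2 ratio of 0.70 (0.61 to 0.80), and Ecrg4, with -1.74 (-1.84 to -1.64). The 8 genes and 4 connective markers were left out of the clustering, but the class still rests on genes of the same cells, so this is a description and not a test.

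Shares in other classes are given beside the connective share, and the part of free RNA in them was not tested. The thinned share of Clec3b-positive cells was 17.6% (15.8 to 19.5) in the connective class and 0 of 130 in the endothelial class. That 0 allows up to 2.31%, and the median depths were 10024.5 and 11130 UMIs. Clec3b was also found in 1.28% (0.416 to 2.96) of muscle lineage cells, 3.16% (1.74 to 5.25) of unnamed cells and 1 of 14 erythroid cells. Dpt was found in 24.2% (22.1 to 26.3) of connective cells, in 0 of 130 endothelial cells and in 1.53% (0.565 to 3.31) of muscle lineage cells. It was also found in 13.8% (10.7 to 17.3) of unnamed cells, 6.61% (4.69 to 8.99) of chondrocytes and 2 of 14 erythroid cells. The erythroid interval, 1.78 to 42.8%, overlaps the connective one. For Dpp4 the share was 3.32% (2.51 to 4.3) of connective cells and 0 of 391 muscle lineage cells, which allows 0.767%. It was 1 of 130 endothelial cells and 2 of 70 mast cells (2.86%, 0.348 to 9.94), which overlaps the connective share, at 1.35 and 16.1 CPM in mast and connective cells. Single cells can carry an outlying load. The highest Clec3b count of the E15.5 library, 25 UMIs, was in 1 cell of muscle cluster 19, and it made up all Clec3b UMIs of that cluster and 25 of the 56 of the muscle lineage class.

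The genes peaked in different connective clusters. Clec3b was highest in cluster 5 (277 cells, also led by Tnxb and Mfap5) at 348 CPM (327 to 370), followed by cluster 25 at 270 CPM (219 to 329) and cluster 8 at 229 CPM (208 to 251). The intervals of clusters 25 and 8 overlap. It was detected in 74.7% of cluster 5 cells. Dpt was highest in cluster 8 (175 cells, with Apod and Cd55), at 1101 CPM (1054 to 1149), and 95.4% of these cells held it; the next level was 483 CPM (458 to 509) in cluster 5. Pi16 was highest in cluster 25 (32 cells, led by Spink6, Anxa8 and Tppp3), at 181 CPM (140 to 231), with the next connective level, 23.9 CPM (17.5 to 31.9), in cluster 8. Cluster 25 held 65 of the 229 Pi16 UMIs.

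The surface proteins had different orders of clusters. Ly6a stood at 80.7 CPM (54.1 to 116) in cluster 25 and 74.8 CPM (63.1 to 88.0) in cluster 8, which overlap, and at 28.2 CPM (22.5 to 35.0) in cluster 5 and 27.9 CPM (22.7 to 34.0) in cluster 7. Dpp4 stood at 42.6 CPM (33.9 to 52.8) in cluster 8 and 32.6 CPM (26.4 to 39.8) in cluster 5, which overlap, at 18.1 CPM (13.9 to 23.1) in cluster 7, and at 9.08 CPM (5.93 to 13.3) in cluster 3 and 8.35 CPM (1.72 to 24.4) in cluster 25. Cd34 was highest among connective clusters in cluster 25 at 362 CPM (302 to 430), then cluster 8 at 227 CPM (207 to 250) and cluster 5 at 183 CPM (168 to 199). Gsn ranged from 68.8 CPM in cluster 15 to 290 CPM (271 to 310) in cluster 5. Cluster 15 (82 cells, led by Twist2 and Stmn2, with Apcdd1 and Wnt4) was poor in the group, with 2 Clec3b UMIs, 1 Ecrg4, 1 Pi16, 2 Ly6a and 1 Dpp4, although Dpt was still present at 49.6 CPM (36.7 to 65.6).

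**Figure D2:**
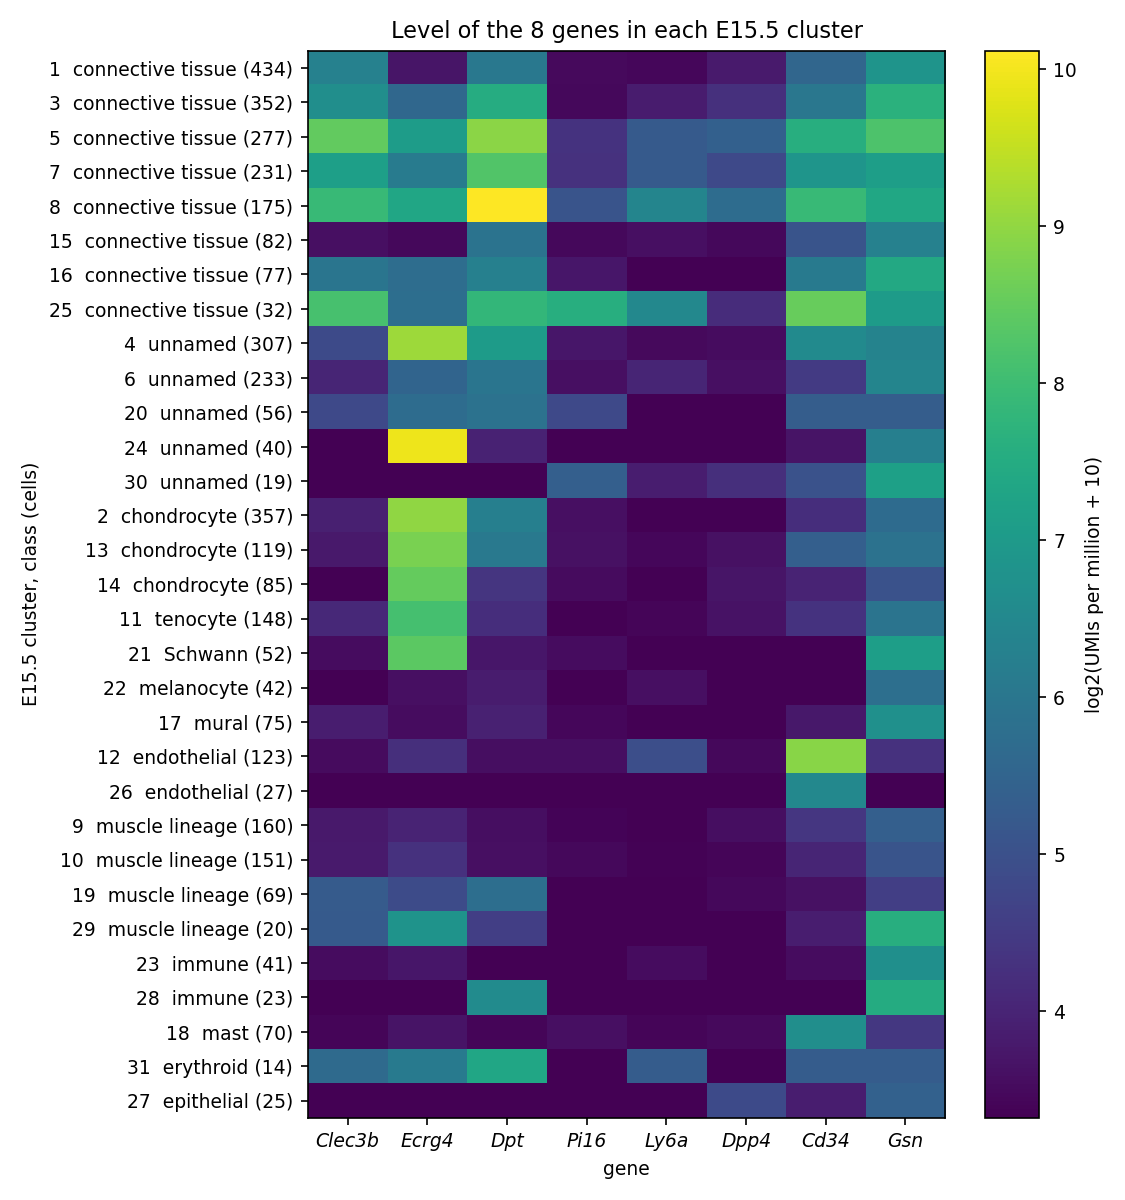
Level of the 8 genes (columns) in each of the 31 E15.5 clusters (rows, with class and number of cells), as log2(CPM + 10). Clec3b is brightest in connective cluster 5, Dpt and Dpp4 in cluster 8, Pi16 and Ly6a in cluster 25, Ecrg4 in chondrocyte, tenocyte, Schwann and unnamed clusters, and Cd34 also in endothelial cluster 12.

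Ecrg4 molecules at E15.5 were spread over chondrocytes, unnamed clusters (31.5% of its UMIs), connective cells, tenocytes (7.48%) and Schwann cells (3.68%). The chondrocyte class held 35.5% of its UMIs at 454 CPM (434 to 475), with 42.3% of thinned cells positive. At E12.5 the chondrocyte class, of 1062 cells, had 0 Ecrg4 UMIs (at most 1.03 CPM for 3 counts). With 3 counts put in place of this 0, the level was about 440-fold higher at E15.5. The exact interval of the log2 ratio, with 0 counts at E12.5, has a lower limit of 8.48. That E15.5 class includes cluster 2 (357 cells), which is led by Dkk3 and Gdf5 and bears joint interzone markers as well, and its level was 501 CPM (473 to 531). The other chondrocyte clusters, with collagen genes of cartilage among their leading genes, stood at 419 CPM (385 to 456, cluster 13) and 357 CPM (313 to 405, cluster 14). The highest level, 981 CPM (881 to 1089), was in cluster 24, 40 unnamed cells led by Cpm, Runx2 and Mia, and 95% of them were positive. Cluster 4, 307 unnamed cells led by Nefm, Tac1 and Ptx3, stood at 552 CPM (523 to 582). Tenocytes stood at 269 CPM (244 to 297) and Schwann cells at 326 CPM (283 to 375). In the connective class Ecrg4 was 58.6 CPM (55.2 to 62.3), highest in clusters 8 (152 CPM, 135 to 170) and 5 (124 CPM, 112 to 138).

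Cd34 and Ly6a were the members with endothelial molecules at E15.5. Endothelial cluster 12 had the highest Cd34 level of all E15.5 clusters, 470 CPM (441 to 501), and 95.9% of its cells were positive. Over the endothelial class the log2 ratio of E15.5 over E12.5 was -0.16 (-0.35 to 0.02), while in the connective class it was 3.8 (3.54 to 4.07); with 1 library per age the difference between classes was not tested. Mast cells held Cd34 at 91.9 CPM (77.1 to 109). Ly6a in the endothelial class was 20.8 CPM (15 to 28), overlapping its level in the connective class (20.7 CPM, 18.6 to 22.9), against 0 UMIs at E12.5 (at most 4.79 CPM for 3 counts). The 150 endothelial cells held few molecules of the remaining members: 3 UMIs of Clec3b, 4 of Dpt, 4 of Pi16, 2 of Dpp4, 19 of Gsn and 18 of Ecrg4, of which 17 were in 1 cell. Gsn in the muscle lineage was level between ages, at 35.3 CPM (28.3 to 43.4) and 36.3 CPM (31.7 to 41.4), a log2 ratio of 0.04 (-0.32 to 0.42). Dpp4 was also found in 7 of 25 epithelial cells (18.8 CPM, 8.10 to 37.0).

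Within the connective class all 8 genes were at least 4-fold higher at E15.5 than at E12.5, where 3.43% of 13258 genes were, with the same limit that they were chosen for it. The log2 ratios were 8.76 (7.95 to 9.71) for Dpt, 8.70 (7.58 to 10.1) for Clec3b, 7.45 (5.59 to 10.5) for Ly6a, 6.37 (5.56 to 7.33) for Ecrg4, 5.09 (4.09 to 6.31) for Dpp4, 2.82 (2.21 to 3.48) for Pi16 and 2.70 (2.55 to 2.85) for Gsn. Pi16 thus passed 4-fold in this class and not over all cells. Its interval over all cells (1.38 to 2.35) overlaps the one in this class, however. Relative to the median gene Pi16 passed 4-fold over all cells too (2.14). Classes were built separately at each age, and the E12.5 and E15.5 clusters of a class do not correspond. These sums do not separate more positive cells from more RNA per cell, and the part of each was not tested.

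Cells with several of the genes were found at E15.5. After thinning, 193 of 3645 E15.5 cells (5.29%, 4.59 to 6.07) held UMIs of at least 3 of the 8 genes, called carriers below, against 0 of 6959 at E12.5, which allows up to 0.0431%. The most genes in a thinned cell was 6, in 2 cells. Without thinning 847 E15.5 cells (21.6%) and 1 E12.5 cell were carriers, and 12 E15.5 cells held all 8 genes, 6 of them in cluster 8, 4 in cluster 7 and 2 in cluster 5. The carrier share is a matter of depth, as the values at other depths show in the closing part.

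**Figure D3:**
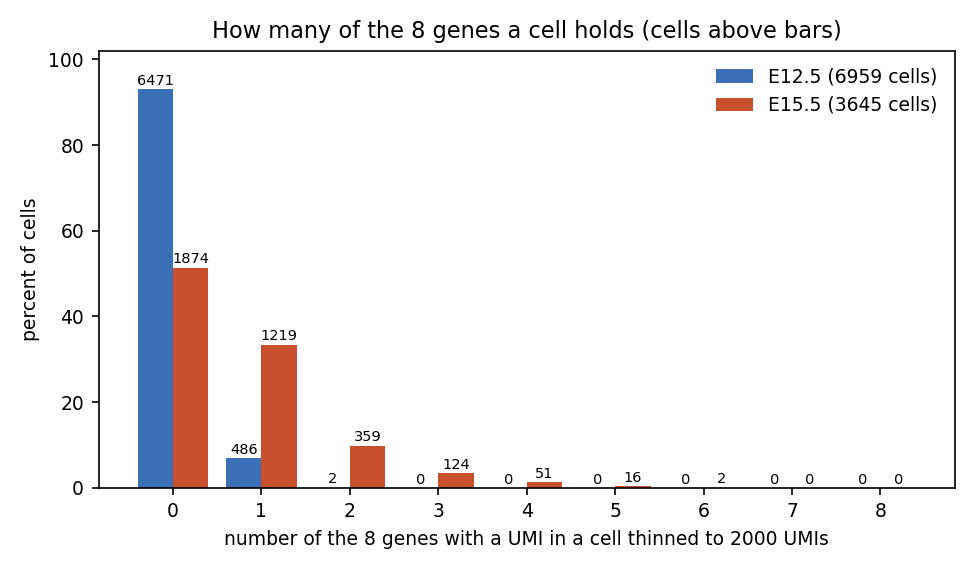
Percent of cells, each thinned to 2000 UMIs, by how many of the 8 genes they hold, at E12.5 (blue) and E15.5 (red), with the number of cells above each bar. At E12.5, 2 cells hold 2 genes and none holds more; at E15.5, 193 cells hold 3 or more.

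Of the 193 carriers, 176 (91.2%, 86.3 to 94.8) were in the connective class, which made up 45.4% of thinned cells. The others were 9 cells of unnamed cluster 4, 7 chondrocytes and 1 cell of the muscle lineage. By cluster the share of carriers was 34.4% in cluster 25 (11 of 32 cells), 31.4% in cluster 8 (24.6 to 38.9) and 26.7% in cluster 5 (21.6 to 32.3), whose intervals overlap. It was 10.0% (6.45 to 14.6) in cluster 7, connective cells led by cell cycle genes, 2.87% (1.38 to 5.21) in cluster 3 and 0.691% (0.143 to 2.01) in cluster 1, the largest cluster. Before thinning, carriers had a median of 10842 UMIs and cells with none of the 8 genes 10423.5.

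Among connective cells, the 176 carriers were compared with the 708 cells that held none of the 8 genes. Their median depths were 11453.5 and 10075 UMIs, and whether this bears on the unthinned levels below was not tested. Most defining genes of other lineages were at 0 in the carriers: Pecam1, Ptprc, Myod1, Acta1, Sox10, Epcam, Krt5 and Rgs5 had no UMI (a limit of 1.70% of cells each), and Cdh5 and Scx were each found in 1 cell. Myog was found in 2 carriers, Cma1 in 3 and Col2a1 in 4, and Sox9, the cartilage factor, in 22 (interval 8 to 18.3%) against 57 of the others (8.05%, 6.15 to 10.3). Tnmd, a tendon membrane protein, was found in 8.52% (4.85 to 13.7) of carriers and 2.12% (1.19 to 3.47) of cells with none. Prrx1, a limb mesenchyme transcription factor, was found in 44.9% (37.4 to 52.6) of carriers and 30.4% (27 to 33.9) of the others. Within clusters the Prrx1 shares were closer in cluster 5 (44.6% and 43.2%) and in the opposite order in cluster 8 (41.8% and 54.5%). They kept the order of the whole class in cluster 3 (40% and 27%), cluster 7 (47.8% and 32.4%) and cluster 25 (72.7% and 66.7%). Pdgfra, the receptor that marks fibroblast progenitors, went the other way, with 18.2% (12.8 to 24.7) and 33.1% (29.6 to 36.7). Within cluster 5 Pdgfra was found in 14.9% (7.66 to 25.0) of 74 carriers and 35.1% (20.2 to 52.5) of 37 cells with none, and within cluster 8 in 12.7% (5.27 to 24.5) of 55 and 27.3% (10.7 to 50.2) of 22. The direction was the same in cluster 7 (21.7% and 44.1%) but not in cluster 3 (30% and 28.9%), nor in cluster 25 (45.5% of 11 carriers and 33.3% of 3 cells). The intervals overlap in each of these 5 clusters.

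Genes of proliferation and limb identity were read in the same cells. Mki67 or Top2a, genes of dividing cells, were found in 19.9% (14.3 to 26.6) of carriers and 28.8% (25.5 to 32.3) of cells with none, whose intervals overlap. Within cluster 8 the order was opposite, at 9.09% (3.02 to 19.95) and 4.55% (0.115 to 22.8), and in cluster 7, led by cell cycle genes, nearly all cells held one of them (100% and 94.1%). The forelimb factor Tbx5 was found in 9.09% (5.29 to 14.3) of carriers and 3.53% (2.30 to 5.17) of the others, and the hindlimb factor Pitx1 in 8.52% (4.85 to 13.7) and 18.6% (15.8 to 21.7). The clusters differed in these genes too: Tbx5 stood at 40.7 CPM in cluster 5 and 8.03 CPM in cluster 3, where Pitx1 stood at 50.4 and 209.9 CPM. Within cluster 5 alone Pitx1 was found in 6.76% (2.23 to 15.1) of carriers and 27.0% (13.8 to 44.1) of cells with none, while Tbx5 was 13.5% (6.68 to 23.5) and 8.11% (1.70 to 21.9). Within cluster 3 Pitx1 was 40.0% (12.2 to 73.8) of 10 carriers and 34.2% (26.7 to 42.3) of the others. Forelimbs and hindlimbs were in the same library, so limb cannot be assigned to a cell beyond these genes, and the part of limb or cluster in the difference was not tested.

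Clec3b and Dpt were often in the same cells. Of 317 thinned E15.5 cells with Clec3b, 136 also held Dpt (42.9%, 37.4 to 48.6), against 11.3% (10.2 to 12.4) of cells without Clec3b. In the connective class alone the shares were 45.4% (39.5 to 51.3) and 19.6% (17.6 to 21.8). Within clusters, shares were compared in clusters 3, 5, 7, 8 and 25, the 5 connective clusters with the most carriers. These clusters were thus picked on the same genes, and clusters 1, 15 and 16 were not compared. The direction was the same in each of the 5, which is a description only. In cluster 5, 44.2% (34.5 to 54.3) of Clec3b-positive cells and 30.6% (23.9 to 38.1) of negative cells held Dpt, and in cluster 8, 90.7% (77.9 to 97.4) and 68.2% (59.5 to 76.0). In cycling cluster 7 the shares were 50% (34.2 to 65.8) and 18.1% (12.9 to 24.3). The 2 intervals do not overlap within cluster 7, nor within cluster 8. In cluster 3 the shares were 29.3% (16.1 to 45.5) and 15.9% (12 to 20.5), and in cluster 25, 7 of 14 and 4 of 18 cells. Within clusters 3, 5 and 25 the intervals overlap.

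Over all 28 pairs of the 8 genes, co-detection was set against the product of the 2 genes' shares, where 1 stands for independence. In all E15.5 cells 24 of the 28 pairs were above 1, with a median of 2.28. Of the 21 pairs where the product comes to at least 5 cells, 17 were above 1 and 8 were at least 2. The 4 pairs below 1 all contained Ecrg4, and the lowest was Ecrg4 with Cd34, 0.764 from 54 cells. The pair of Dpt with Dpp4 stood at 4.09 (35 cells with both) and Clec3b with Dpp4 at 4.71 (25 cells). Pi16 with Cd34 stood at 4.67 (18 cells), and the highest value, Pi16 with Ly6a at 11.9, rests on 5 cells. In the connective class alone 26 of 28 pairs were above 1, with a median of 1.92, and the 2 below, Pi16 with Gsn (0.843) and Ly6a with Gsn (0.895), come from 5 and 9 cells. Of the 20 pairs in this class with a product of at least 5 cells, 18 were above 1 and 7 were at least 2. Pairs share cells and genes and are not independent, so these are descriptions.

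**Figure D4:**
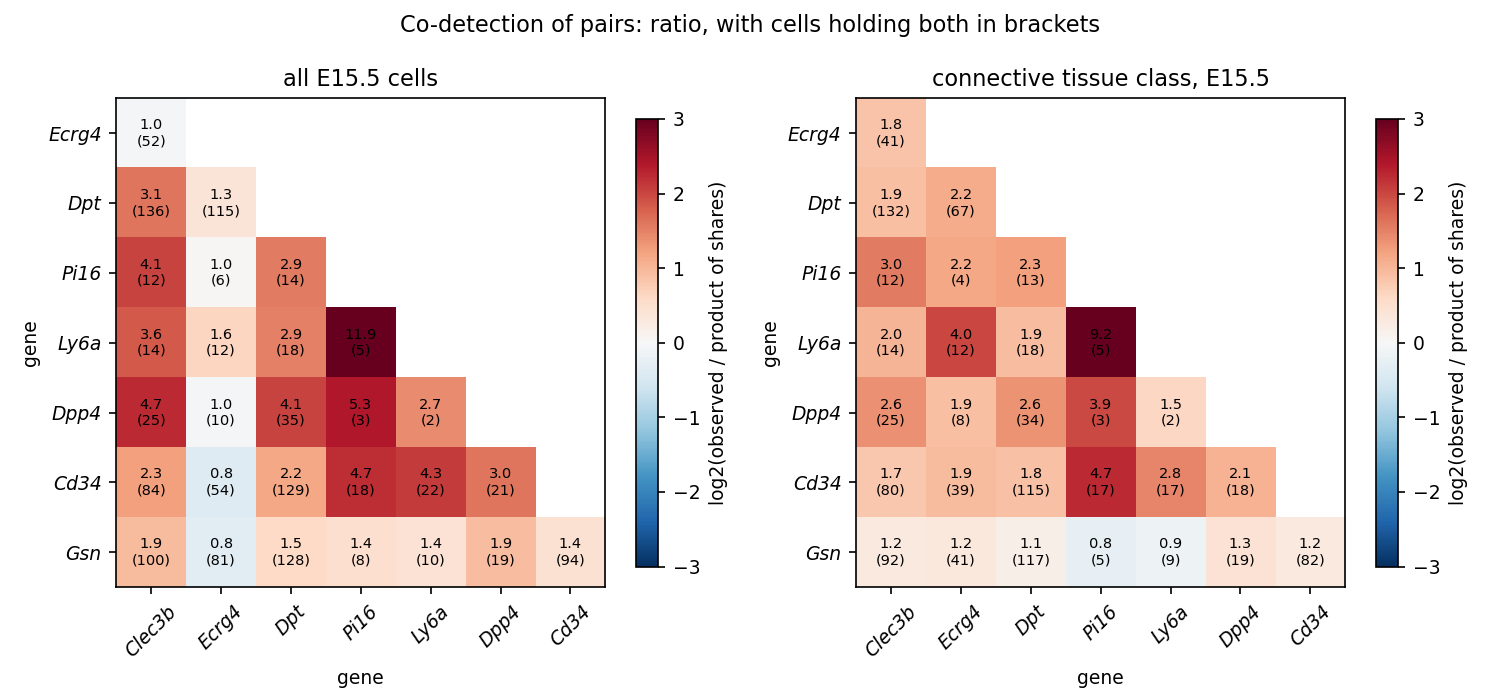
Co-detection of each pair of the 8 genes in E15.5 cells thinned to 2000 UMIs, in all cells (left) and in the connective tissue class (right): numbers are the observed over the expected count of cells from the product of shares, with the cells that hold both in brackets, and colour is the log2 of the ratio. Pairs with Ecrg4 are near 1 in all cells and above 1 in the connective class.

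Ecrg4 behaved differently by class. Over all cells 67.8% of Ecrg4-positive cells held none of the other 7 genes, and cells with and without Ecrg4 held 0.529 and 0.547 other members on average. Among connective cells 78.9% (70.8 to 85.6) of Ecrg4-positive cells held another member and 52.3% (43.3 to 61.2) held Dpt, against 21.8% (19.7 to 23.9) of Ecrg4-negative cells. Another member was present in 14.8% (10.5 to 19.9) of Ecrg4-positive chondrocytes, 10.4% (3.47 to 22.7) of tenocytes and 23.8% (8.22 to 47.2) of Schwann cells. In Ecrg4-positive unnamed cells the share was 29.2% (22.7 to 36.5), and in those of the muscle lineage 3 of 11 (27.3%, 6.02 to 61.0). For Cd34 the connective and endothelial classes differed. Another member was found in 73.6% (67.8 to 78.8) of Cd34-positive connective cells and in 8.96% (3.36 to 18.5) of Cd34-positive endothelial cells, where it was Ly6a in 3 of 67 cells, Gsn in 2 and Dpp4 in 1. The share was 43.8% (29.5 to 58.8) in Cd34-positive unnamed cells. In Cd34-positive chondrocytes it was 8 of 14 (57.1%, 28.9 to 82.3), which overlaps the connective share. All 23 Pi16-positive connective cells held another member, Cd34 in 17 and Dpt in 13.

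The genes whose level across the 31 E15.5 clusters was most like each member were ranked among 10830 genes by Pearson's r of log2(CPM + 10), as a description over clusters of 1 library. For Clec3b they were Mfap5 (0.92), Wnt2 (0.89) and Tnxb (0.86). Apod (0.88), Osr1 (0.83) and Mfap5 (0.83) were most like Dpt. Adgrd1 came first for Ly6a (0.90) and for Dpp4 (0.76), followed by Wnt2 and Ahnak2 for Ly6a and by Htr1f and Slc7a10 for Dpp4. Naaa (0.75), Cd55 (0.72) and Ccn3 (0.69) were most like Pi16. Ecrg4 was most like Col25a1 (0.84), Col11a1 (0.84), a fibrillar collagen gene of cartilage, and Sox9 (0.84), and Cd34 most like Tek (0.85), the angiopoietin receptor of endothelium, Slco2a1 (0.78) and Shroom4 (0.73). Gsn was most like Adprh (0.76), Cited2 (0.73) and Rnf166 (0.73). Between members, Clec3b and Dpt had an r of 0.84, and Ecrg4 had at most 0.33, with Dpt.

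A list of 30 companion genes of universal and progenitor fibroblasts, matrix and secreted proteins among them, was set beside the members. The list was chosen with earlier results of these data known, so its counts are a description and nothing is read from them. Of the 28 with at least 50 UMIs in the connective class over both ages, 13 were at least 4-fold higher at E15.5 and 2 at least 4-fold lower, where 3.43% of genes were higher and 5.83% lower. Their median log2 ratio was 1.76, beside -0.34 over all 13258 genes. The 5 highest were Tnxb, the matrix glycoprotein tenascin X, at 7.87 (5 and 1248 UMIs), Mfap5, a microfibril protein, at 7.11 (24 and 3553), Igfbp6 at 6.28 (12 and 996), Efhd1 at 4.65 (5 and 134) and Cd55 at 4.38 (39 and 870). The 3 lowest were Pcolce2 at -2.42 (265 and 53), the collagen gene Col15a1 at -2.01 (196 and 52) and Creb5 at -0.10 (2811 and 2806). Not all fibroblast genes of the list were therefore late: Fbln1 was 203 CPM at E12.5 and 229 CPM at E15.5.

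Companions were also set beside carrier status within the E15.5 connective class, with the same limit on the choice of the list. Of 24 companions with at least 50 UMIs over these cells, 16 were at least 2-fold higher in carriers than in connective cells with none of the 8 genes and 0 at least 2-fold lower, where 4.08% of 10286 genes were higher and 4.31% lower. Their median log2 ratio was 1.65, beside -0.07 over all genes. Cd55, a complement regulator, was highest at 3.88 (177 and 12 CPM), and Mfap5 stood at 2.68 (566 and 88.2 CPM). Sema3c, at 3.23 (358 and 38.2 CPM), differed more between these cells than between the ages (1.17). Col14a1, a fibril-associated collagen, had 1033 CPM in carriers and 236 CPM in the others. Penk (-0.89), Lpl (-0.72) and Mgp (-0.43) were lower in carriers, short of 2-fold. Carriers were concentrated in clusters 5, 8 and 25, as given above, and the part of cluster in these ratios was not tested.

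**Figure D5:**
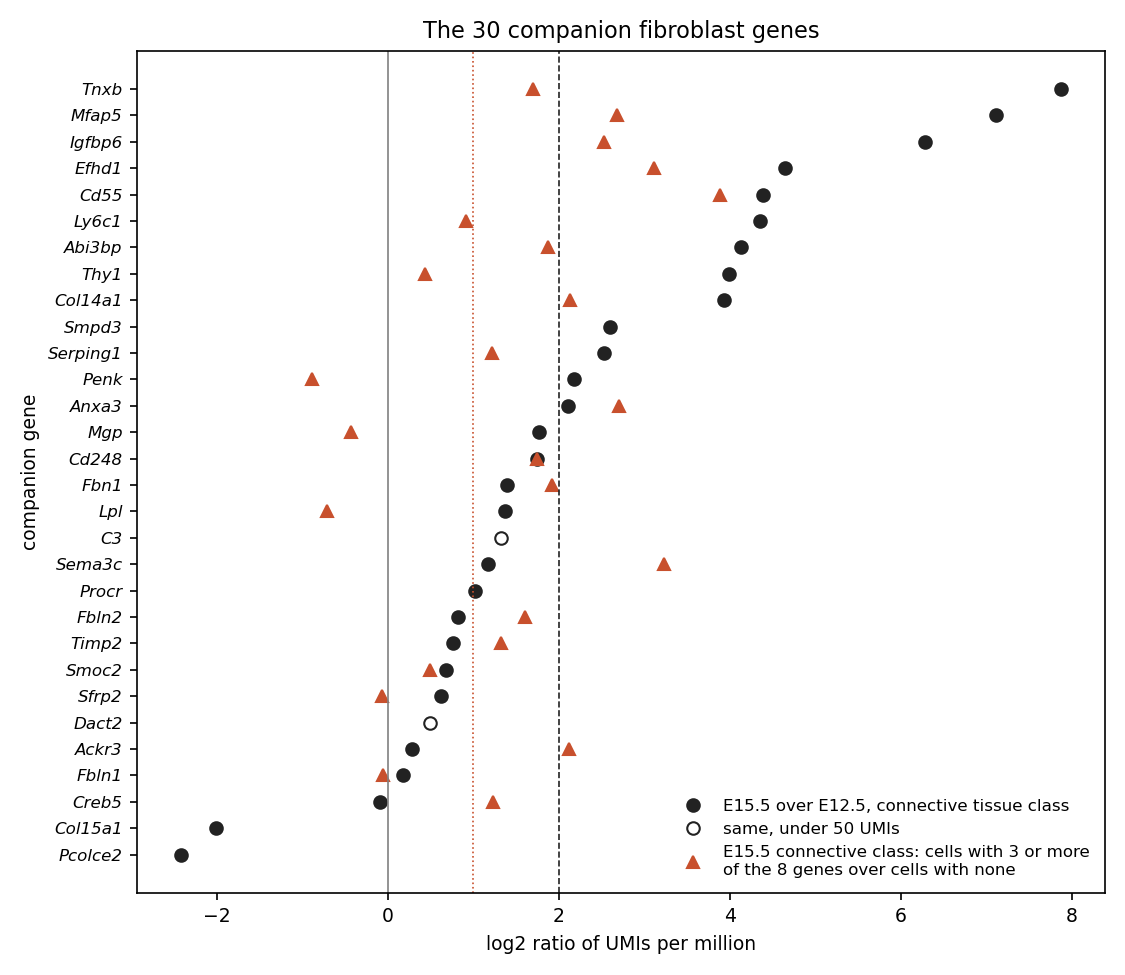
The 30 companion genes in order of their log2 ratio of CPM between E15.5 and E12.5 in the connective tissue class (circles, open where under 50 UMIs) with, as triangles, the log2 ratio of E15.5 connective carriers over connective cells with none of the 8 genes. The dashed line marks 4-fold and the dotted line 2-fold; Tnxb, Mfap5 and Igfbp6 are the most different between ages, Cd55, Sema3c and Efhd1 between cells.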

How the data were processed

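The deposited matrices are raw counts of UMIs for every gene in every barcode. Per the file headers they are output of Cell Ranger 4.0.0; the submitters' processing notes name mm10 and Seurat 4.3.0 as well, and the annotation release is not given in the sources used here. They list 12941 barcodes at E12.5 (34907675 UMIs) and 5780 at E15.5 (46966083 UMIs), none under 500 UMIs. The features file holds 32285 genes, and all 8 symbols were matched.

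From these counts, barcodes with under 500 genes (604 and 1376) or 10% or more mitochondrial UMIs (166 and 644) were left out. Doublets were scored against 2 simulated doublets per cell, as Scrublet does, and the top 0.8% per 1000 barcodes removed (1270 and 190). Each library was clustered on its own (2000 variable genes, 30 components, 15 neighbours, Leiden at resolution 1.0; scikit-learn 1.9.0, igraph 0.11.9, leidenalg 0.10.2) without the members, companions, Pdgfra, Prrx1, Osr1 and Twist2. A cluster was named where at least 3 markers of a class were 2-fold higher and found in at least 10% of its cells, with 1 among its 10 leading genes; clusters left over were called connective where 3 of its markers were 2-fold above the pooled muscle, endothelial, blood, nerve, epithelial, mural and pigment classes and no other class had more of its markers among the leading genes. Clusters under 1 part in 3 of the median depth with no marker in the lead stayed unnamed. Names come from 15 marker lists and the companions from a list of 30.

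CPM levels have exact Poisson intervals, shares have Clopper-Pearson intervals, and ratios exact conditional intervals (numpy 2.4.6, scipy 1.17.1). Counts under 3 were set to 3 in calls, and a count of 0 is given with the limit of 3 counts. Thinning drew UMIs without replacement and left out 4042 and 271 shallower cells. PCR duplicates are collapsed by UMI, but intervals cover counting error only. The functions were tested on simulated data.

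All members are named. The 5 highest and 3 lowest companions between ages and, for each member, the 3 genes most like it (among genes with at least 200 UMIs at E15.5) are named by rule. Other companions, clusters and their leading genes were named after their values were seen. The members and lists were chosen with earlier results of these data known.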

Additional observations from a re-analysis of the deposited data

How the results depend on the processing

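With 1 library per age, no result has a replicate error, and age cannot be told apart from library, dissociation or embryos. No paired analysis was possible because each age has 1 library. Depth limits Pi16, Ly6a and Dpp4 most: after thinning they were found in 34, 45 and 61 E15.5 cells.

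The summed log2 ratio of the 8 genes, 3.70, was 3.99 relative to the median gene and 3.93 with cells weighted equally. The share of E15.5 carriers, 5.29%, was 1.80% at 1000 UMIs per cell, 15.4% at 5000 and 21.6% with no thinning, and 15.1% and 1.89% for at least 2 and at least 4 members (these counts of members, the exclusion of shared barcodes and the other resolutions for likeness were chosen after seeing the data). The connective share of carriers, 91.2%, was 95.7% at 1000 UMIs, 85.8% at 5000, 81.1% with no thinning, 86.0% with at least 1000 genes per cell and 75.4% for at least 2 members. The share of Clec3b-positive cells with Dpt, 42.9%, was 51.3% at 5000 UMIs and 58.6% with no thinning. A higher thinning depth leaves more UMIs per cell by construction. The companion count was between 13 and 15 under every alternative run. Among single genes, Creb5 was reversed relative to the median gene (0.25), and of the 24 genes most like a member 12 were named again at resolution 0.5 and 16 at resolution 2.0. The lowest and highest connective log2 ratios over the alternatives were 8.55 and 9.04 for Clec3b and 2.11 and 3.16 for Pi16. The smallest Pi16 value came with the lists kept among the variable genes.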

Other observations

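Among E15.5 cells that are not connective, unnamed cluster 4 (307 cells, led by Nefm, Tac1, Ptx3 and Sfrp2) held Dpt at 124 CPM (110 to 138) and Cd34 at 85.4 CPM (74.2 to 97.8) beside its 552 CPM of Ecrg4, with Clec3b at 18.7 CPM (13.7 to 24.9). Unnamed cluster 30 (19 cells, led by Lyz2, Cd52 and Plac8, genes of white blood cells) held 7 Pi16 UMIs in 4 cells (31.5 CPM, 12.7 to 64.9), an interval that overlaps those of connective clusters 5 and 8. Differentiated muscle cluster 29 (20 cells, led by Mylpf and Tnnc2) held Ecrg4 at 102.5 CPM (74.5 to 138) in 60% of its cells and Gsn at 182 CPM (144 to 227), and 27 of its 78 Gsn UMIs were in 1 cell. Erythroid cluster 31 (14 cells) held 26 Dpt UMIs, of which 20 were in 1 cell. What gave single cells such loads was not tested.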
